A study of Drosophila melanogaster with 17 samples.

Results

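Fly brains that carried any of 4 human TyrRS transgenes were compared with brains of the driver control, and the genes that lay on one side of control in every transgenic library are described. TyrRS is the enzyme that charges its tRNA with tyrosine, and dominant mutations such as E196K cause Charcot-Marie-Tooth neuropathy. The 17 libraries were whole brains of flies aged 10 days. The 3 control libraries carried the nSyb-Gal4 driver alone, which acts in neurons, and all other flies carried it together with UAS transgenes. These were TyrRS-WT (3 libraries), TyrRS-WT-NLS (3), TyrRS-E196K (4) and TyrRS-E196K-NLS (4), where NLS in the labels stands for a disrupted nuclear localization signal. According to the methods the flies had 2 transgene copies in TyrRS-WT and in TyrRS-WT-NLS, 1 in TyrRS-E196K and 3 in TyrRS-E196K-NLS. No flies with an empty vector were analysed here. An effect of any TyrRS protein, of the vector or its insertion sites, and of the genetic background of the control line therefore cannot be told apart in this comparison, and the human transcript itself was not a feature of the counts. A difference in sequencing batch cannot be told apart from these either, since the batch of each library was not known here.

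The mean of the 4 genotypes, each with the same weight, was set against control. Of 16163 genes with at least 1 read, 504 had no transgenic library overlapping control, 248 on the higher side (1.53% of genes) and 256 on the lower side (1.58%). The fit across all genes called 896 genes at an adjusted p under 0.05, of which 443 were higher (2.74%) and 453 lower (2.8%). Both criteria were met by 401 genes, and 309 of these had a mean of at least 1 CPM (counts scaled by the normalised library size, in units of 1e+06 reads). These 309 genes, 178 higher and 131 lower, are the members described below. Since they were chosen by their difference from control, their fold changes against control are given as a description of the members. The shares over all genes that stand beside the gene lists below include genes under 1 CPM, which were called less often. Of 9372 genes averaging 1 CPM or more, 386 were called higher and 308 lower. On these sides 204 and 165 did not overlap control.

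Counts on genes ranged from 29380481 to 41859207 in control and from 41070861 to 56030758 in the transgenic libraries, so control had the lowest median depth, and its range overlapped that of TyrRS-E196K. Without control replicate 1 the fit called 486 genes and without control replicate 3 it called 351, and 142 of the 309 members were called in each of the 17 fits that left out 1 library. Control replicate 2 was the control library nearest to the transgenic ones for 81 of 178 higher and 68 of 131 lower members. The brain markers elav, nSyb, brp, Syt1 and repo were present in every library, and none of 9 neuron and 9 glia markers was called.

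Most shared shifts were small. The median log2 fold change was 0.55 in the higher and -0.58 in the lower members, against 0.0002 over all genes tested. A fold of at least 2 was reached by 35 higher and 30 lower members, and 163 members changed by less than 1.5-fold. The members at the border of the non-overlap rule were CG14478, whose highest control and lowest transgenic library were both at 111.1 CPM after rounding, CG12963 and CG4078. Just outside lay Etl1, with a lowest control library of 54.39 CPM against a highest transgenic library of 54.41, CG33543 and Fib.

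The genotypes were also tested singly against the same 3 control libraries. In 56 genes (0.346% of those tested) each of the 4 genotypes was called higher than control alone, and in 52 genes (0.322%) each was called lower. Among the 309 members, 90 were called in all 4 genotypes, 86 in 3, 65 in 2, 54 in 1 and 14 in none when genotypes were tested singly. Since the members were chosen for lying on one side of control in all genotypes, these counts and the medians that follow describe the choice and are no separate evidence. For the higher members the median log2 fold change was 0.50 in TyrRS-WT, 0.60 in TyrRS-WT-NLS, 0.53 in TyrRS-E196K and 0.50 in TyrRS-E196K-NLS, and for the lower members it was -0.55, -0.60, -0.63 and -0.60.

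Whether the members differed among the 4 transgenic genotypes was asked with a test that does not use control. Over all genes it called 996 (6.16%). Of the 309 members it called 40, or 21 of the higher and 19 of the lower ones.

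The 2 endogenous genes with sequence in the vector were among the members. UAS transgenes of the pUAST type carry a copy of white as an eye colour marker and a minimal promoter taken from an hsp70 gene, and the part of these copies in the counts was not tested. White (w, FBgn0003996, chromosome X from 2790599 to 2796466 in BDGP6), an ABC transporter that loads eye pigment precursors, was at 31.0, 30.2 and 26.8 CPM in the control libraries. It was at 99.9, 81.7 and 89.7 CPM in TyrRS-WT, at 69.7, 62.0 and 67.0 in TyrRS-WT-NLS, at 140.3, 125.9, 126.5 and 113.1 in TyrRS-E196K and at 211.0, 210.4, 223.1 and 221.8 in TyrRS-E196K-NLS. Every transgenic library was above every control library and no 2 transgenic genotypes overlapped, with a log2 fold change of the mean of 1.95 (standard error, SE, 0.08, adjusted p = 3.4e-10).

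Hsp70Bb (FBgn0013278, chromosome 3R from 12505793 to 12508139), one of the near-identical heat-inducible Hsp70 chaperone genes, rose most of all members. It was at 2.62, 2.36 and 2.96 CPM in control. It was at 77.8, 70.8 and 77.4 CPM in TyrRS-WT, at 78.6, 40.2 and 37.9 in TyrRS-WT-NLS, at 107.9, 81.9, 64.5 and 78.3 in TyrRS-E196K and at 174.0, 154.0, 195.2 and 207.0 in TyrRS-E196K-NLS. All 14 lay above control, the 3 genotypes with the lower levels overlapped each other, and the log2 fold change was 5.05 (SE 0.26, adjusted p = 6.18e-09). The other 5 copies of the family on the list (Hsp70Aa, Hsp70Ab, Hsp70Ba, Hsp70Bbb and Hsp70Bc) were not called, and reads shared between such close copies could have been split in counting. Of the 7 genes on this list 3 averaged 1 CPM or more, w and Hsp70Bb among them. Most of the other copies were thus under 1 CPM, and their lack of a call says little. Of 11 inducible heat shock genes outside the family, 1 was called, the small heat shock gene Hsp67Ba, which fell (log2 fold change -0.55, adjusted p = 0.0273). Over all genes 2.8% were called lower. Hsp67Ba overlapped control, and its call was lost without control replicate 1 (adjusted p = 0.15) and without control replicate 3 (adjusted p = 0.131).

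Both genes differed among the transgenic genotypes (adjusted p = 1.25e-08 for w and 0.000194 for Hsp70Bb). The order of the w levels was TyrRS-WT-NLS, TyrRS-WT, TyrRS-E196K and TyrRS-E196K-NLS. The highest level was that of the genotype with 3 copies, but TyrRS-E196K with 1 copy was above both genotypes with 2. The genotypes did not differ in copy number alone, so the part of copy number in these levels was not tested.

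**Figure D1:**
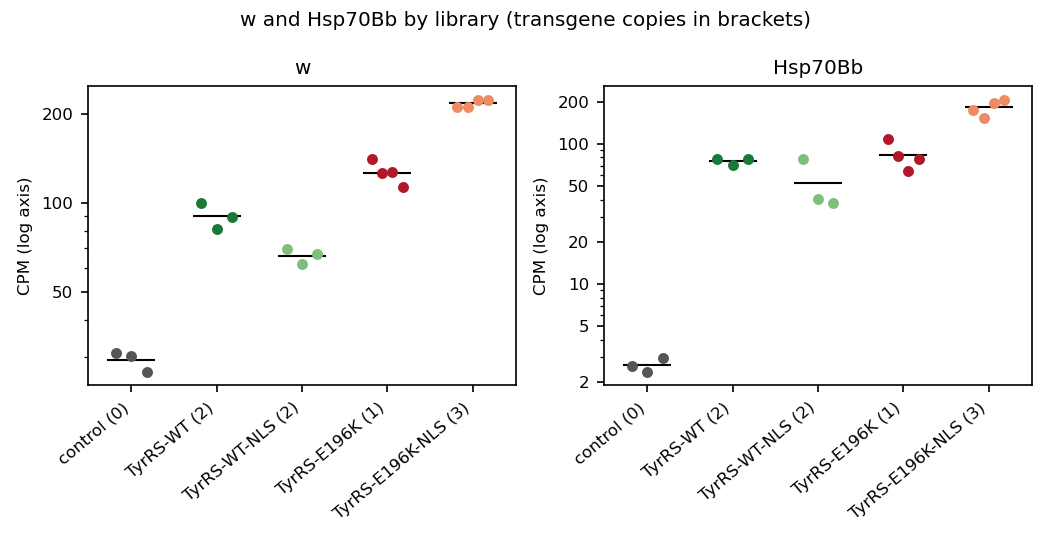
CPM of w and Hsp70Bb on a log axis in each library, by genotype, with the number of transgene copies in brackets. Points are libraries and lines are group means. Control lies at 26.8 to 31.0 CPM for w and 2.36 to 2.96 for Hsp70Bb, below all 14 transgenic libraries.

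Large falls were found in genes of low or moderate level. The non-coding RNA CR45600 (FBgn0267160, chromosome 3R from 15136985 to 15140121) was at 39.0, 32.3 and 26.2 CPM in control and at 0.73 to 1.44 CPM, with a median of 1.02, in the 14 transgenic libraries. Its log2 fold change of -4.97 (SE 0.12, adjusted p = 3.16e-13) was the largest fall of all members. CG6654 (FBgn0038301, chromosome 3R from 15211277 to 15213658) was at 88.4, 93.7 and 92.6 CPM in control and at 15.3 to 22.4 CPM, median 20.1, in transgenic brains. The fall of 2.24 on the log2 scale (SE 0.08) was nearly the same in each genotype, from -2.16 in TyrRS-WT to -2.30 in TyrRS-WT-NLS.

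GILT3 (FBgn0039098), a lysosomal thiol reductase of the GILT family, was at 9.75, 10.6 and 12.8 CPM in control and at 1.03 to 2.40 CPM, median 1.43, in the transgenic libraries. It fell by 2.92 on the log2 scale (SE 0.17, adjusted p = 1.98e-08), while the other 2 members of its family were not called. Dhc98D, a dynein heavy chain, was at 5.68 to 7.24 CPM in control and at 1.52 to 2.27 in transgenic brains (log2 fold change -1.78, SE 0.12). It was the single dynein heavy chain called out of 10, against 2.8% of all genes called lower. The intraflagellar transport gene CG5142 (Ttc30) fell by 1.78 too, from 4.83 to 6.537 CPM in control to 1.19 to 2.68.

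Other large falls were those of CG17005 (-2.91), CG6912 (-2.68), CG13488 (-2.56), the serine protease easter (ea, -2.27), CG5835 (-1.77) and the organic anion transporter Oatp26F (-1.67), all log2 fold changes. Oatp26F was at 2.02 to 2.62 CPM in control and at 0.63 to 0.94 in every transgenic library. The adenosine kinase gene Ady43A (Adk3) had one of the clearest shifts at a higher level. Its control libraries were at 87.3, 87.4 and 95.8 CPM and its transgenic libraries at 37.8 to 47.6 CPM, median 42.4, a log2 fold change of -1.06 (SE 0.05, adjusted p = 5.4e-10).

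Genes with the largest rises after Hsp70Bb were also mostly of low level. CG31220 went from 0.05 to 0.28 CPM in control to 1.05 to 2.42 (log2 fold change 3.08, SE 0.35). The cytochrome P450 gene Cyp6d2 went from 0.34 to 0.42 CPM to 1.36 to 5.11 (2.87, SE 0.35). CR32207, a hairpin RNA gene from which endogenous small RNAs are made, went from 0.85 to 1.09 CPM to 2.63 to 7.15 (2.30, SE 0.16). A second hairpin RNA gene 8.03 kb away, pncr009:3L, rose by 1.11 (SE 0.12).

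Several further large rises rested on the full set of control libraries. CG13749 (BaraB, of the Baramicin peptide family) had a log2 fold change of 2.96, and its adjusted p of 0.0208 became 0.0747, 0.0582 and 0.137 without control replicates 1, 2 and 3. For CG31178 (1.96) the same values were 0.0712, 0.0578 and 0.136, and for CG14329 (1.72) they were 0.0604, 0.0545 and 0.0839. CG8100 (2.44) lost its call without control replicate 1 (adjusted p = 0.0901) and without control replicate 2 (0.0644). CG31174 (2.14) and CG31955 (1.72) kept theirs in all fits that left out 1 library.

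**Figure D2:**
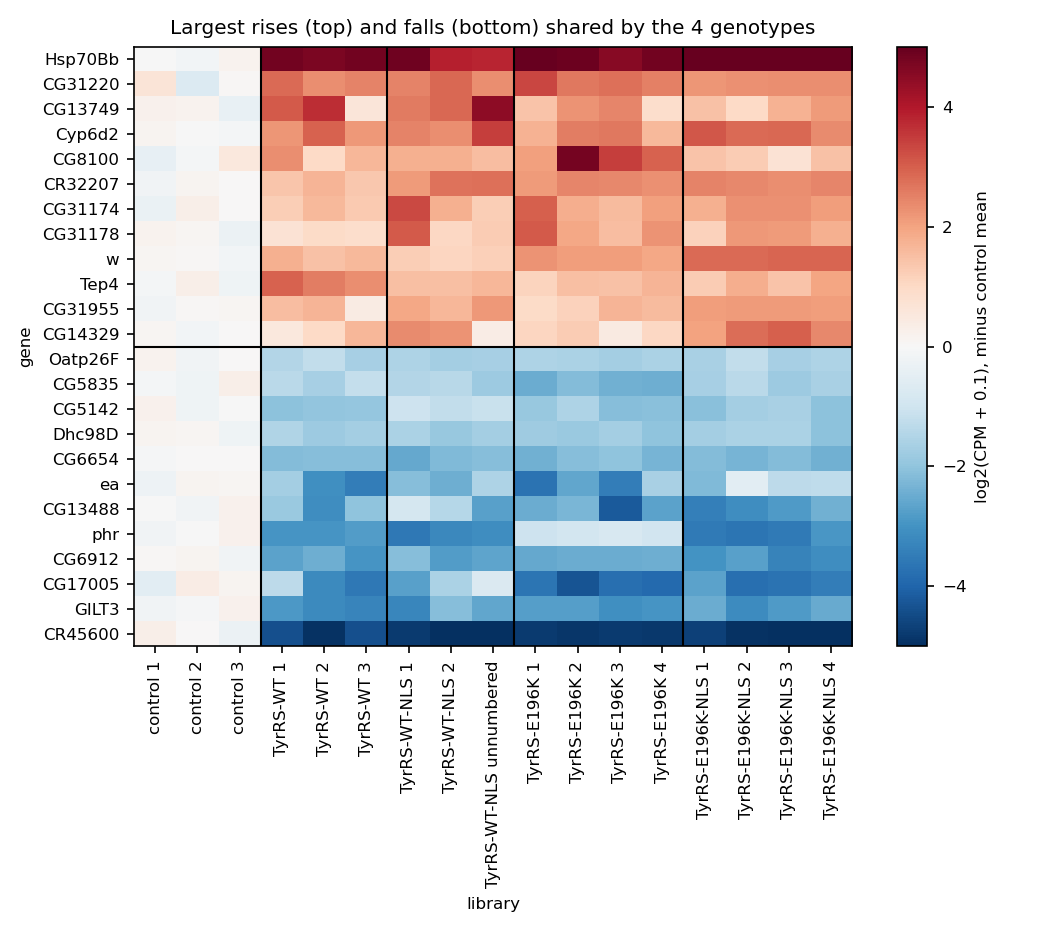
Colour shows log2(CPM + 0.1) minus the control mean in each of 17 libraries (columns) for the 12 members with the largest rises and the 12 with the largest falls (rows). Hsp70Bb is darkest among the rises and CR45600 among the falls, and phr is pale in the 4 TyrRS-E196K libraries, at 13.6 to 16.0 CPM.

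The 2 most abundant higher members encode elongation factors. Ef1alpha48D, which encodes elongation factor 1 alpha and delivers charged tRNAs to the ribosome, was at 3496, 4076 and 3086 CPM in control and at 4670 to 6753 CPM, median 5941, in transgenic brains. The log2 fold change was 0.72 (SE 0.12, adjusted p = 0.00221). EF2, elongation factor 2, which moves the ribosome along the mRNA, went from 1984 to 2242 CPM to 2602 to 3126 (0.47, SE 0.07, adjusted p = 0.000819). Both genes lay above control in 14 of 14 libraries and did not pass the test among the 4 genotypes for a difference (adjusted p = 0.777 for Ef1alpha48D).

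Cytosolic ribosomal protein genes shifted little. Of 92 tested, 5 were called higher and 1 lower, against 2.74% and 2.8% of all genes. Those called higher included RpS24 (log2 fold change 0.36), RpL7 (0.31) and RpL12 (0.27), and all 5 overlapped control in at least 1 library. The median of the list was 0.19 and 85 of 92 values were above 0. The calls of RpS24, RpL7 and RpL12 were lost without control replicate 1 (adjusted p = 0.102, 0.262 and 0.216) and without control replicate 3 (0.0569, 0.124 and 0.144). RpL7 and RpL12 also lost theirs without any of several transgenic libraries, and RpL12 without control replicate 2 (0.0578). One paralog of low level, RpL37b, fell by 3.08 (SE 0.43) from 0.32 to 0.48 CPM to 0 to 0.17. Of 22 cytosolic tRNA synthetase genes, 1 was called higher, against 2.74% of all genes. This was Aats-val (0.29, adjusted p = 0.00729), and its call was lost without control replicate 1 (0.069) or 3 (0.0749). All TyrRS-E196K-NLS libraries, at 59.6 to 63.1 CPM, lay inside its control range of 54.5 to 65.1 CPM (adjusted p among genotypes = 0.0124). Aats-tyr, which encodes the endogenous TyrRS of the fly, was not called (0.28, SE 0.10, adjusted p = 0.134), with 40.7 to 50.5 CPM in control and 46.5 to 71.2 in transgenic brains.

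Other abundant higher members were CG31705 (log2 fold change 0.33), CG17108 (1.07) and CG32521 (0.23). CG17108 went from 307.7 to 561.0 CPM to 634.9 to 1685. Its adjusted p of 0.0267 became 0.15 without control replicate 1 and 0.0712 without replicate 3, and that of CG31705 became 0.0519 without replicate 3. The call of CG32521 (adjusted p = 0.0493) was lost without any of control replicates 1, 2 and 3 (0.136, 0.106 and 0.203) and without any of 11 transgenic libraries.

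Among the abundant lower members, 4EHP, a cap-binding repressor of translation, was at 300.2, 197.4 and 204.8 CPM in control and at 138.6 to 177.9 in transgenic brains (log2 fold change -0.61, SE 0.09). Rolled (rl), the fly ERK MAP kinase, was at 264.4, 198.4 and 225.5 CPM in control and at 138.7 to 171.1 (-0.61, SE 0.07). CG40498 fell by the same amount (-0.61). For rl and 4EHP control replicate 1 was the highest control library. The aspartate aminotransferase Got1 fell by 0.30 and CRMP, a collapsin response mediator protein gene, by 0.19 on the log2 scale. Got1 lost its call without control replicate 1 (adjusted p = 0.0706) or 3 (0.14), and CRMP (adjusted p = 0.0479) without any of control replicates 1, 2 and 3 (0.135, 0.0823 and 0.204) or of 10 transgenic libraries.

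In flies, the Toll and Imd pathways switch on antimicrobial peptides through NF-kappaB factors after peptidoglycan is sensed, chiefly in fat body and blood cells but also in the head. Of 35 genes of these pathways, 4 were called higher (over all genes 2.74% were) and none lower, and 2 lay above control without overlap (1.53% over all genes). The thioester protein gene Tep4 (FBgn0041180, chromosome 2L from 19548507 to 19556451) was at 25.7, 33.9 and 23.4 CPM in control and at 59.5 to 209.0 CPM, median 81.6, in transgenic libraries (log2 fold change 1.81, SE 0.17, adjusted p = 1.11e-05). It was highest in the 3 TyrRS-WT libraries, at 209.0, 162.9 and 137.3 CPM, and differed among the genotypes (adjusted p = 0.00125). PGRP-LC, the main peptidoglycan receptor of the Imd pathway, went from 25.3 to 29.5 CPM to 30.3 to 46.4 (0.49, SE 0.10, adjusted p = 0.00663), and its call was lost without control replicate 3 (adjusted p = 0.069).

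The other 2 genes overlapped control in at least 1 library. Relish (Rel), the NF-kappaB factor of the Imd pathway, had a log2 fold change of 0.99 (SE 0.17, adjusted p = 0.00293). Its shift was unequal among the transgenic genotypes (adjusted p among genotypes = 0.00395). It was 0.29 in TyrRS-E196K-NLS, at 74.4 to 128.2 CPM against 62.1 to 105.2 in control, and 0.91 to 1.46 in the other genotypes. PGRP-SB1, an Imd-induced amidase, had a log2 fold change of 2.29 (SE 0.48, adjusted p = 0.0098). Its call was lost without control replicate 1 (adjusted p = 0.065) or 3 (0.0848). The antimicrobial peptide genes themselves were not called, in spite of large values. Diptericin (Dpt) had a log2 fold change of 5.34 (SE 1.79, adjusted p = 0.099) with 0.41 to 2.23 CPM in control and 0.25 to 400.9 in transgenic libraries, and Attacin-C (AttC) one of 3.07 (SE 0.87, adjusted p = 0.0503). The median of the 35 genes was 1.60 and 34 values were above 0, against a median of 0.0002 over all genes.

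The summed level of the 35 genes was 914.3, 1367 and 778.3 CPM in control and ran from 1344 to 9277 CPM in transgenic brains, so it overlapped control in 2 TyrRS-E196K-NLS libraries (1344 and 1351 CPM). TyrRS-WT replicate 2 was the highest. Markers of fat body and blood cells, which make these peptides, were also counted. None of 12 fat body and yolk markers was called (summed level 22660 to 31140 CPM in control and 10450 to 46860 in transgenic brains), nor any of 8 haemocyte markers (922.4 to 998.7 against 563.7 to 1312 CPM). Over all genes 2.74% were called higher and 2.8% lower, so lists of this size can easily hold no call. The part of these tissues in the levels of the 35 genes was not tested.

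Some other members act in the haemolymph, and they were grouped here after their values were seen. Hayan and persephone (psh), neighbouring serine protease genes of Toll activation and melanisation, had log2 fold changes of 0.78 and 0.45. The call of Hayan was lost without control replicate 1 (adjusted p = 0.0559) or 3 (0.0979). The clotting gene fondue (fon) was at 147.9, 269.7 and 183.2 CPM in control and at 286.2 to 533.2 CPM, median 476.9, in transgenic brains (1.17, SE 0.20, adjusted p = 0.00279). The cytokine genes Gbp (Gbp1) and CG11395 (Gbp2) rose by 0.47 and 0.62, and the chitinase-like growth factors Idgf1 and Idgf2 by 0.87 and 0.49. The calls of CG11395 (adjusted p = 0.0885, 0.128 and 0.114 without control replicates 1, 2 and 3), Idgf1 (0.0595 without replicate 1 and 0.0726 without replicate 3) and Idgf2 (0.0533 without replicate 3) depended on single control libraries. CG30285 (BaraC), of the same peptide family as BaraB, fell from 31.0 to 41.3 CPM to 16.5 to 23.95 (-0.81, SE 0.09).

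Neuropeptides are secreted signals of small groups of brain neurons and act mostly through G protein-coupled receptors. Of 48 neuropeptide and receptor genes, 2 were called higher and 9 lower, against 2.74% and 2.8% of all genes, and 1 higher and 4 lower genes did not overlap control, against 1.53% and 1.58%. The median of the list was -0.13. AstC-R1 (FBgn0036790, chromosome 3L from 18560258 to 18576326), a receptor for allatostatin C, was at 55.9, 45.1 and 43.6 CPM in control and at 17.6 to 23.4 CPM, median 20.8, in all transgenic libraries. It fell by 1.20 on the log2 scale (SE 0.07, adjusted p = 2.08e-08), by 1.116 to 1.35 in the single genotypes.

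Several peptide genes also fell. Dsk (drosulfakinin, -0.47), Hug (hugin, -0.50) and CCAP (crustacean cardioactive peptide, -0.78) did not overlap control. Without control replicate 3 the adjusted p was 0.0556 for Dsk, 0.106 for Hug and 0.0696 for CCAP, and with TyrRS-E196K left out that of Hug was 0.102. The circadian peptide gene Pdf was at 186.6, 167.7 and 246.5 CPM in control. It was at 144.7, 121.6 and 140.1 CPM in TyrRS-WT, at 163.3, 178.1 and 129.8 in TyrRS-WT-NLS, at 55.4, 46.9, 44.8 and 55.0 in TyrRS-E196K and at 173.4, 167.7, 156.9 and 159.2 in TyrRS-E196K-NLS. Its lowest levels were those of the 4 TyrRS-E196K libraries and 2 transgenic libraries, TyrRS-WT-NLS replicate 2 and TyrRS-E196K-NLS replicate 1, reached the control range, so that the mean change of -0.80 (SE 0.10) was unequal among genotypes (adjusted p = 9.28e-07). With TyrRS-E196K left out it was -0.40 (adjusted p = 0.046).

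AstC, the ligand of AstC-R1, had the same form, with log2 fold changes of -1.28 in TyrRS-E196K and -0.17 to -0.41 in the other genotypes, and its mean change of -0.54 became -0.29 (adjusted p = 0.0485) with TyrRS-E196K left out. The remaining genes called lower were Nplp4 (-1.74), ITP (ion transport peptide, -0.38) and Mip (-0.28), all overlapping control. The call of Mip was lost without control replicate 3 (adjusted p = 0.147) and that of ITP without replicate 1 (0.0786) or 3 (0.0804). With TyrRS-E196K left out ITP was at -0.18 (adjusted p = 0.285). Pdfr, the receptor of Pdf, was called higher by 0.21 (adjusted p = 0.0421) and AstA-R2 by 0.50, and AstA-R2 was not called without control replicate 1 (0.0572) or 3 (0.165). The log2 fold change of AstA-R2 was 0.07 in TyrRS-E196K and 0.52 to 0.78 in the other genotypes (adjusted p among genotypes = 0.012). The call of Pdfr was lost without any of control replicates 1, 2 and 3 (0.0647, 0.129 and 0.216) or of 9 transgenic libraries. None of 14 clock genes was called.

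**Figure D3:**
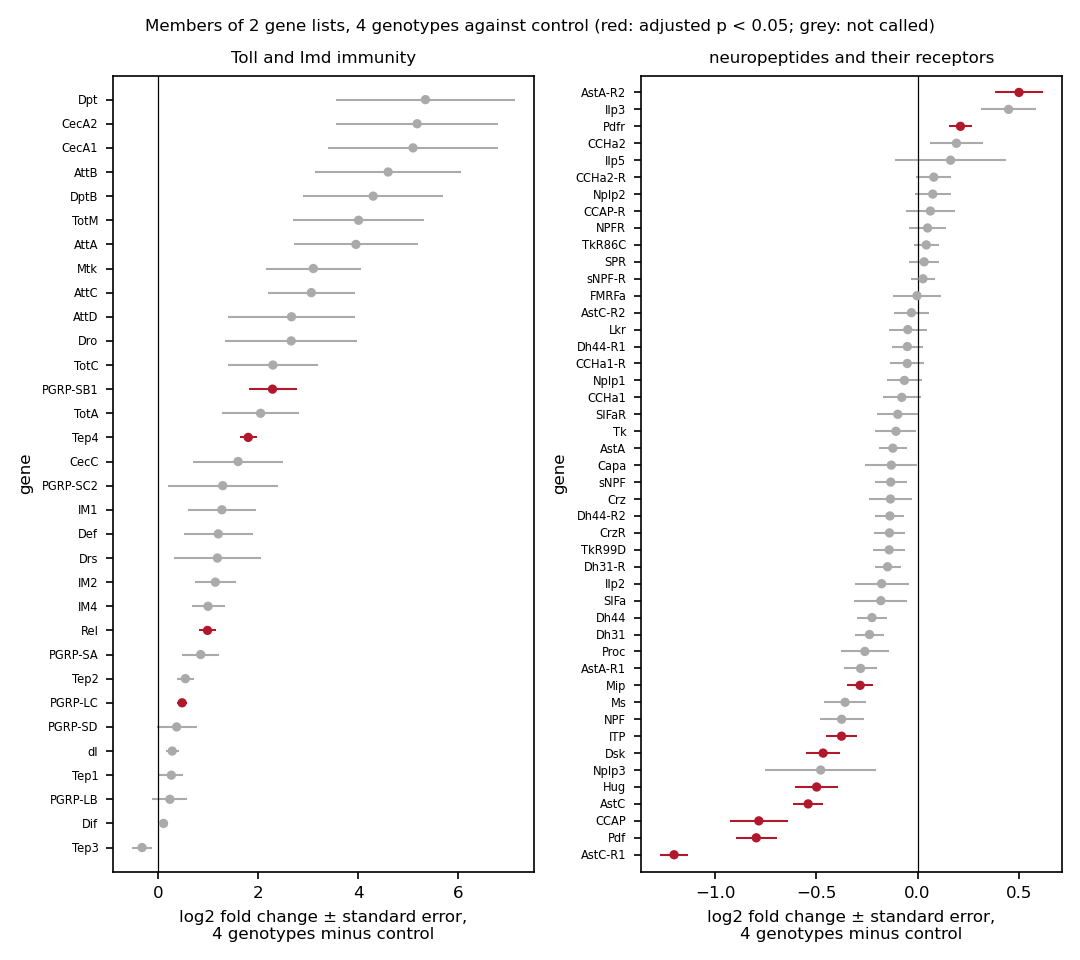
Log2 fold change of the mean of 4 transgenic genotypes against control, with its standard error, for genes averaging 1 CPM or more in 2 lists. In the immunity list 4 genes are called (red), and the antimicrobial peptide genes at the top have wide errors; in the neuropeptide list AstC-R1 lies lowest at -1.20.

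The photoreceptor genes of the retina, of which some tissue can stay on a dissected brain, lay below control on average. Of 14, 1 was called lower, against 2.8% of all genes. This was Rh6, the rhodopsin of one class of R8 cell (log2 fold change -1.34, SE 0.19, adjusted p = 0.000625). It overlapped control and was lowest in the 3 TyrRS-WT-NLS libraries, at 10.8, 14.5 and 16.1 CPM, against 143.9 to 194.9 in control. With TyrRS-WT-NLS left out the mean change was -0.58 (adjusted p = 0.138). All 14 values were below 0 with a median of -0.44, while the summed level of the list was 16380 to 21290 CPM in control and 9083 to 23600 in transgenic brains. In whole brains, fewer cells of a type and less RNA per cell cannot be told apart.

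**Figure D4:**
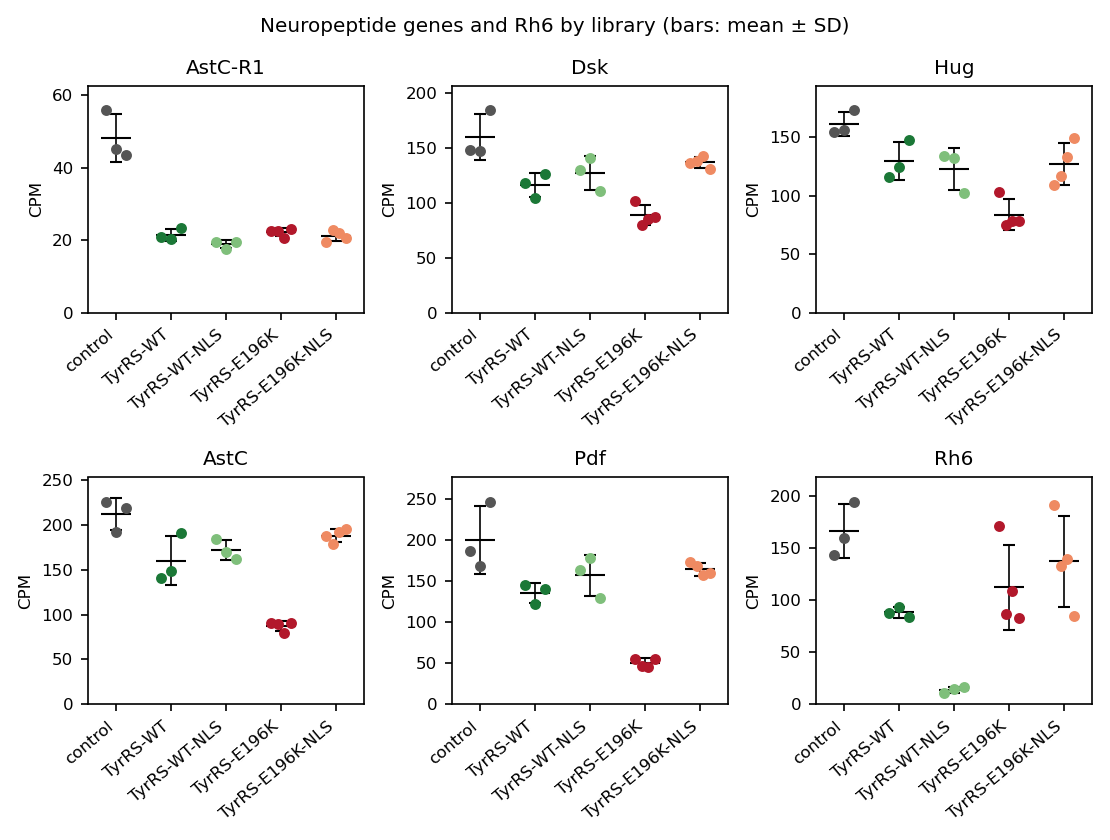
CPM of 6 genes in each library by genotype, with mean and SD. AstC-R1 is at 17.6 to 23.4 CPM in all 4 transgenic genotypes, whereas Pdf and AstC are lowest in TyrRS-E196K and Rh6 in TyrRS-WT-NLS.

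Genes that handle foreign compounds went both ways. Of 86 cytochrome P450 genes, 6 were called higher and 5 lower, with a median of 0.09. The shares over all genes, for this and the next lists, were 2.74% and 2.8%. Among those that did not overlap control, Cyp6d2 (2.87), Cyp4p3 (1.71) and Cyp6d4 (0.43) were higher and Cyp28d2 (-0.82) and Cyp6a14 (-0.50) lower, in log2 fold change. Cyp6d4 was not called without control replicate 1 (adjusted p = 0.0758) or 3 (0.0711), and Cyp6a14 not without replicate 1 (0.0513). Of 17 UDP-glycosyltransferase genes 4 were called lower and none higher. The median of this list was nevertheless 0.16, with 10 values above 0, and 8 of the 17 averaged 1 CPM or more. Among those called, Ugt58Fa (-0.55) and Ugt86Di (-0.84) did not overlap control. The log2 fold change of Ugt86Dd, also called lower, was 0.21 in TyrRS-WT and -1.27 to -1.82 in the other genotypes. Ugt86Di was not called without control replicate 3 (adjusted p = 0.0556). Of 35 glutathione S-transferase genes 1 was called higher and 2 lower, all overlapping control. Of 11 genes of the unfolded protein and integrated stress responses, the endoplasmic reticulum stress sensor Ire1 was called higher (0.25, adjusted p = 0.0199) and overlapped control, and it was not called without control replicate 2 (0.0838) or 3 (0.102).

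Of 25 DNA repair genes, 1 was called higher and 3 lower, against 2.74% and 2.8% of all genes. The photolyase gene phr, which reverses ultraviolet-induced pyrimidine dimers with light, was at 24.7, 27.4 and 32.7 CPM in control. It was at 3.55, 3.55 and 3.92 CPM in TyrRS-WT, at 2.27, 2.89 and 3.20 in TyrRS-WT-NLS, at 13.6, 14.7, 16.0 and 14.3 in TyrRS-E196K and at 2.30, 2.14, 2.35 and 3.69 in TyrRS-E196K-NLS. All were below control, and the TyrRS-E196K libraries stood between control and the other genotypes (log2 fold change -0.95 against -2.94 to -3.43, adjusted p among genotypes = 5.8e-08). The related photolyase gene phr6-4 was called higher (1.30, adjusted p = 0.000701) and overlapped control. Its log2 fold change was 0.43 in TyrRS-WT and 1.39 to 1.76 in the other genotypes (adjusted p among genotypes = 0.00477). The nuclease gene mre11, lower by 0.32 on the log2 scale (adjusted p = 0.0479), overlapped control and lost its call without control replicate 1 (0.12), control replicate 3 (0.282) or any of 8 transgenic libraries. It was not below control in TyrRS-WT (28.3 to 31.5 CPM), and with TyrRS-E196K-NLS left out its mean change was -0.17 (adjusted p = 0.338).

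The members were also ranked by the evenness of the shift over genotypes. Among members with at least a 2-fold change, the range of the 4 log2 fold changes was smallest for fon (0.058), followed by Ir76a (0.079), an ionotropic receptor, CG6654 (0.145), pncr009:3L (0.155) and Dhc98D (0.166). These ranges are the smallest picked from many members. That of fon lay under the SE of its mean change (0.20), so its rank is a description of these libraries only. Ir76a was at 21.1, 20.3 and 24.004 CPM in control and at 7.78 to 11.4 in transgenic brains. The smallest p-values among genotypes belonged to w, phr, vis, FANCI and Hsp70Bb. The homeobox gene vis went from 0.82 to 1.05 CPM to 1.90 to 5.42, with log2 fold changes of 1.13 in TyrRS-WT and 1.20 in TyrRS-E196K and of 2.00 in TyrRS-WT-NLS and 2.36 in TyrRS-E196K-NLS. Its neighbour and close copy achi was lower (-0.56), and reads could be split between the 2 genes. FANCI, a gene of the Fanconi anaemia pathway, had the same order, with 0.50 and 0.70 against 1.55 and 1.69. Outside the members, the chaperone gene Hsc70-2 passed the test of the mean (log2 fold change 2.38, adjusted p = 0.00772) through TyrRS-WT, where it was at 58.6 to 69.1 CPM, whereas all other libraries were at 0.29 CPM or lower, and with TyrRS-WT left out the change was 0.21 (adjusted p = 0.921).

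Members lay near each other in the genome. Of 304 members with a position in BDGP6, 70 (23.03%) had another member within 10 kb, and 1101 of 8879 other genes averaging 1 CPM or more (12.4%) had a member as near. Of the 43 pairs of members within 10 kb, 33 moved in the same direction and 10 in opposite ones. Some pairs overlap or are close copies, and the library kit did not keep the strand, so that reads of overlapping genes could not be told apart.

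Groups were built as chains of at least 4 members with gaps of at most 100 kb, and each starts and ends on a member. The share of members inside a group is therefore raised by the way it was built. Among all genes averaging 1 CPM or more, 309 of 9372 were members. The group with the most members was on chromosome 3R from 15135138 to 15225329. In these 90.2 kb, 6 of 17 genes averaging 1 CPM or more were members and all 6 were lower, namely CG6912 (-2.68), CR45600 (-4.97), CG3987 (-1.56), CG6654 (-2.24), CG4210 (-1.48) and CG31344 (-0.72). CR45600 overlaps the start of CG6912 on the same strand and that of CG3987 on the other strand. In the 200 kb to each side of CG6654, 8 of 64 genes were called lower and 0 higher, and ea (-2.27) was the seventh member there. The genes between them were not called. CG4203, which overlaps one end of CG6654 on the other strand, had a log2 fold change of -0.10 (adjusted p = 0.467), SIDL one of -0.05 (0.645) and GlyS one of -0.21 (0.0725), and the serpin gene Spn88Eb one of 1.77 (0.0507). These 4 genes were picked after their values were seen.

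**Figure D5:**
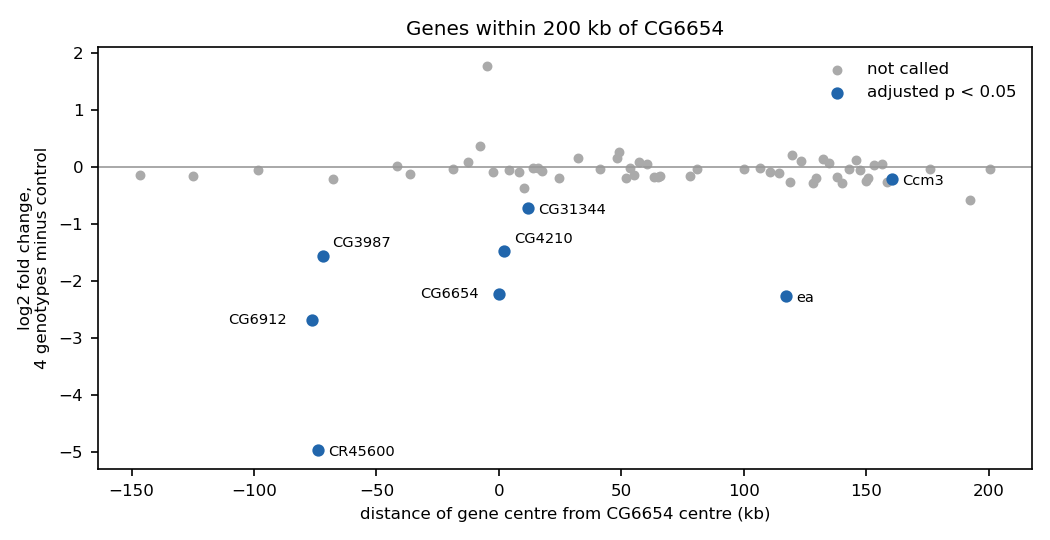
Log2 fold change of the mean of 4 transgenic genotypes against control for 64 genes averaging 1 CPM or more around CG6654, by the distance of the gene centres in kb. The 8 called genes (blue) are all lower, and most genes between them lie near 0.

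A second group on chromosome 3R, from 21866172 to 21907182, held 5 members. CG6569 (1.08), CG31174 (2.14), CG31178 (1.96) and CG6678 (0.64) were higher and dnd (-0.97), a small GTPase gene, was lower. The call of CG6569 was lost without control replicate 1 (adjusted p = 0.115) or 3 (0.173), and that of CG31178 without any of control replicates 1, 2 and 3 (0.0712, 0.0578 and 0.136). In the gene-poor stretch of chromosome 2R nearest its centromere, rl (-0.61), Yeti (-0.60), CR40190 (-1.02) and CG40191 (-0.48) were 4 of 4 genes averaging 1 CPM or more and all lower. CG40498 (-0.61) lies on the same arm, over 100 kb from rl. Yeti was at 116.0 to 138.1 CPM in control and 76.3 to 91.2 in transgenic brains. Yeti, CR40190 and CG40191 were named after their values were seen, because they form a group with rl. Other groups were of 1 direction, as on X from 21111414 to 21349843 with 4 higher members. Some were mixed, as on 2R from 17432173 to 17539142 with 3 higher and 2 lower members.

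By chromosome arm the shares of members departed from those of the genes measured most for lower members on 2L and 2R, and this was not tested. Of genes averaging 1 CPM or more, 16.4% were on the X chromosome, against 15.7% of higher and 12.2% of lower members. On 2L, with 17.3% of the genes, lay 20.2% of higher and 10.7% of lower members, and on 2R, with 20.2%, lay 24.2% and 27.5%.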

How the data were processed

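Members and gene lists were chosen with earlier results of these data known. The authors trimmed reads with Trimmomatic 0.32, mapped them with TopHat2 2.0.12 to BDGP6, and deposited HTSeq 0.6.1 counts per gene, not normalized. The deposited normalized table was not used. The methods state 2 sequencing batches and a batch factor in DESeq2 1.14.1, and the removal of 3 outlier libraries. The batch of each library is not given in the sources used here, so no batch factor was fitted. Reads not assigned to a gene made up 8.126% to 10.055% of a library and were left out.

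Each column was matched to a library by name, except 1 TyrRS-WT-NLS column (WTN-19), whose name differs from the label of the third library (WTN-18). The methods list library 18 of this genotype as a removed outlier, so the column was used as a library of its group with no replicate number. Counts of 16163 genes were tested with edgeR 4.0.16 (R 4.3.3, limma 3.58.1), quasi-likelihood F test, TMM, 1 fit of all 17 libraries, a contrast that weights each transgenic genotype 0.25 against control, and Benjamini-Hochberg adjustment with a threshold of 0.05. Standard errors are the log2 fold change over the square root of F. The fit was tested on simulated counts. A gene did not overlap control where its lowest and highest CPM in the 14 transgenic libraries lay wholly above or below the 3 control libraries. At this depth replicate spread limits precision, except under 1 CPM, where few reads are counted. Libraries of a genotype had Spearman correlations of 0.9722 to 0.9853 and differed by a chi-square of 64.77 to 152.1 for each gene; none was a copy of another. The labels do not say that replicates were separate cultures of flies, so p-values measure the spread between these libraries.

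Named genes were, among members, the 12 largest rises and falls, the 5 most abundant on each side, the 5 most even with at least a 2-fold change and the 5 least even. Added were w, Hsp70Bb and Aats-tyr, list members called, and members within 10 kb of another. Lists are described by counts and medians, with no test of the list. A few named genes are not reported here. Positions are those of a BDGP6 annotation that holds 17253 of 17559 gene identifiers. Alternatives were DESeq2 size factors, filterByExpr, DESeq2 1.42.0, a replicate block, 1 surrogate variable (sva 3.50.0), an adjusted p under 0.1, all transgenic libraries as 1 group, each genotype or library left out, CPM of the total count, a mean of at least 1 CPM and a gap of 1.5 times. Tables and plots used Python 3.11.15, numpy 2.4.6, pandas 2.3.3 and matplotlib 3.10.9.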

Additional observations from a re-analysis of the deposited data

Results flagged for a closer look

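Among the 141 named genes, 13 of 280 groups of 4 libraries held 1 library far from the other 3 (the gap to the nearest library over the range of the group was above Dixon's critical value, which chance gives in about 5% of groups). In TyrRS-E196K replicate 1 these were CG6569 (gap over range 0.8294, 2.33 CPM against 1.33 to 1.497), Hug (0.898, 103.3 against 75.3 to 78.1) and GstE14 (0.971, 3.67 against 2.14 to 2.19). In TyrRS-E196K replicate 3 they were AstC (0.903, 79.3 CPM against 89.7 to 90.8), Ir76a (0.959, 11.4 against 9.40 to 9.48) and Oatp26F (0.8295, 0.63 against 0.71 to 0.72). In TyrRS-E196K replicate 4 they were CG11951 (0.845, 12.3 CPM against 8.45 to 9.04) and Hf (0.871, 73.3 against 57.3 to 59.4). In TyrRS-E196K-NLS replicate 1 it was GstE14 (0.914, 4.56 CPM against 1.88 to 2.11). In TyrRS-E196K-NLS replicate 4 they were Hayan (0.843, 9.97 CPM against 6.70 to 7.22), mthl3 (0.855, 2.52 against 2.08 to 2.14), Ady43A (0.908, 46.2 against 41.2 to 41.7) and phr (0.864, 3.69 against 2.14 to 2.35).

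The effect against control differed among the 4 transgenic genotypes for 36 of the 141 named genes by edgeR's test of their equality. Over all genes tested it differed for 996 (6.16%). The named genes include the 5 members chosen for the smallest p of this same test, so the count of 36 is a description only. Among genes higher on average these were Hsp70Bb (adjusted p = 0.000194), CG8100 (0.00695), Hsc70-2 (3.22e-10), CR32207 (0.00216), w (1.25e-08), Tep4 (0.00125), CG14329 (0.0266), vis (1.02e-05), phr6-4 (0.00477), FANCI (0.000117), Rel (0.00395), Cyp6a15Psi (1.39e-05), GstE11 (0.0319), Cyp6t3 (5.46e-05), CG31445 (0.0348), CG10730 (0.00852), AstA-R2 (0.012) and Aats-val (0.0124). Among genes lower on average they were mre11 (adjusted p = 0.000453), ITP (2.1e-05), Dsk (0.00294), Hug (0.0144), Cyp301a1 (0.00166), AstC (3.7e-06), Ugt58Fa (0.00546), achi (0.00717), Gadd45 (0.00486), Pdf (9.28e-07), CG32165 (0.00169), Ugt86Dd (1.49e-06), Rh6 (1.47e-05), Nplp4 (0.00583), CG5835 (0.00256), CG5142 (0.0149), phr (5.8e-08) and CG17005 (0.019).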

How the results depend on the processing

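The 896 genes called in the mean contrast became 1405 with DESeq2's Wald test (842 shared), 1444 at an adjusted p under 0.1 and 387 with the 14 transgenic libraries as 1 group, where the spread between genotypes enters the error. With each library left out in turn they ranged from 351 (without control replicate 3) to 921. The 504 genes without overlap became 62 with a gap of at least 1.5 times and 820 without TyrRS-E196K-NLS, and ranged from 518 to 1246 (without control replicate 2) with 1 library left out, since fewer libraries then have to lie apart. The 108 genes called in each of 4 genotypes became 208 with DESeq2 and 185 at an adjusted p under 0.1, and ranged from 60 to 136. The 996 genes that differed among the genotypes became 1806 with DESeq2's likelihood ratio test and ranged from 675 to 1044. DESeq2's size factors, filterByExpr and 1 surrogate variable moved no count by over 1.5 times. Of the 141 named genes, 64 kept their side of the threshold under every alternative and 77 lost a call under at least 1, and none changed direction.

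Libraries with the same replicate number did not deviate together (correlations of their deviations from -0.437 to 0.458 in 27 pairs), so the numbers were not taken as pairs. With the replicate number as a block, and without the unnumbered library, 654 genes were called in the mean contrast, 73 in each of 4 genotypes and 755 among genotypes. The 3 control libraries are shared by all comparisons with control and limit their precision.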
